A study of Rattus with 6 samples.

Results

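The proteins of the cytosolic ribosome are described here at the level of their mRNAs. The members are the protein-coding genes of the deposited table named as ribosomal proteins of the large subunit (Rpl, and the stalk genes Rplp0, Rplp1 and Rplp2) or of the small subunit (Rps, and Rpsa), without the Rps6k kinases. They number 83 of the 54012 genes in the table, 51 of the large and 32 of the small subunit. The rule used names and no measured value, but it was chosen with earlier results of these data known. RNA was sequenced from cultures labelled as vascular smooth muscle cells from aorta, in primary culture, all of them exposed to Ang II (angiotensin II, a peptide hormone that constricts vessels). The si-CDCP1 group (3 libraries, genotype label CDCP1 knockdown) had received an siRNA against CDCP1, a transmembrane glycoprotein phosphorylated by Src family kinases. The si-NC group (3 libraries, genotype label WT) had received a control siRNA. No culture without Ang II or without siRNA was analysed here, and the labels do not say whether the replicates came from separate animals.

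Ribosomal proteins surround the ribosomal RNA of the small subunit, which reads the mRNA, and of the large subunit, which joins amino acids and lets the new chain out through a tunnel. Most of them are present once per ribosome, the stalk proteins in more copies, and their mRNAs are among the most abundant in growing cells. In vertebrates these mRNAs begin with a terminal oligopyrimidine (TOP) tract, through which mTORC1 and LARP1 control their translation. Mammalian genomes carry large numbers of processed pseudogene copies of ribosomal protein genes, whose reads are hard to assign to 1 locus.

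The values were FPKM (fragments per kilobase of gene length, scaled by a factor for each library), deposited for mouse genes on mm10, although the samples are labelled as rat. The species of the cells was not settled here, and gene names are mouse names. Between 16050517 and 19771638 reads fell in listed genes per library. Cdcp1 had 0, 5 and 0 reads in si-CDCP1 libraries and 2, 2 and 1 reads in si-NC libraries, so the knockdown could not be checked. Of 8 smooth muscle markers, 4 averaged at least 1 FPKM (Acta2, Tpm1, Vcl and Smtn), while the contractile markers Myh11, Cnn1 and Tagln reached at most 0.216 FPKM and Des at most 1.09 FPKM in any library. Their summed level ran from 130.3 to 172 FPKM in si-CDCP1 and from 126 to 131.5 FPKM in si-NC libraries, with Acta2 averaging 46.8 FPKM in si-CDCP1 and 37.4 FPKM in si-NC. Fibroblast markers summed to between 8.68 and 10.8 FPKM in si-CDCP1 and between 10.9 and 12.2 FPKM in si-NC, most of it Pdgfra, with Lum near 0. The 3 blood cell markers summed to between 0.714 and 0.878 FPKM in si-CDCP1 and between 1.22 and 1.31 FPKM in si-NC, nearly all of it Cd68, with Adgre1 at 0 in every library. The 4 endothelial markers summed to at most 0.515 FPKM in si-CDCP1 and 0.401 FPKM in si-NC, and the 3 epithelial markers to at most 0.218 FPKM in si-CDCP1 and 0.126 FPKM in si-NC. The part of other cell types in the results below was not tested.

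Most ribosomal protein genes differed little between the groups, and none of them passed the test. In limma's moderated test on log2(FPKM + 1) over the 12080 genes averaging 1 FPKM or more, 0 of the 80 tested members had a Benjamini-Hochberg (BH) adjusted p under 0.05, where 0.0% of all tested genes did. The smallest adjusted p of a member was 0.267. At an unadjusted p under 0.05, 8 members were higher in si-CDCP1 (10.0% of members, 8.94% of all tested genes) and 1 was lower (1.25% of members, 5.31% of all tested genes). Limma voom on the reads recovered from the FPKM called 0 of the 80 members and 0.0348% of the 14365 genes it tested. It took library sizes from the deposited FPKM and so shares their scaling. In these bulk samples, fewer cells of a type and less RNA per cell cannot be told apart.

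The members' log2 differences were small and mostly positive. Of the 80 tested members, 66 had a positive log2 difference, si-CDCP1 minus si-NC (82.5%, against 52.3% of all tested genes). Their median was 0.06 and their quartiles 0.03 and 0.10, against a median of 0.01 and quartiles of -0.09 and 0.10 over all tested genes. Of these members, 74 lay within 0.2 of 0 on the log2 scale. The 48 tested large subunit genes had a median log2 difference of 0.06, with 40 positive, and the 32 small subunit genes a median of 0.05, with 26 positive. The size of this median depended on scaling, and its sign changed with quantile normalisation. With libraries rescaled to equal FPKM sums the members' median was still positive, at 0.01 (45 positive, against 38.4% of all tested genes), beside -0.04 over all genes. With quantile normalisation it was -0.03 (30 positive, against 49.1%).

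**Figure D1:**
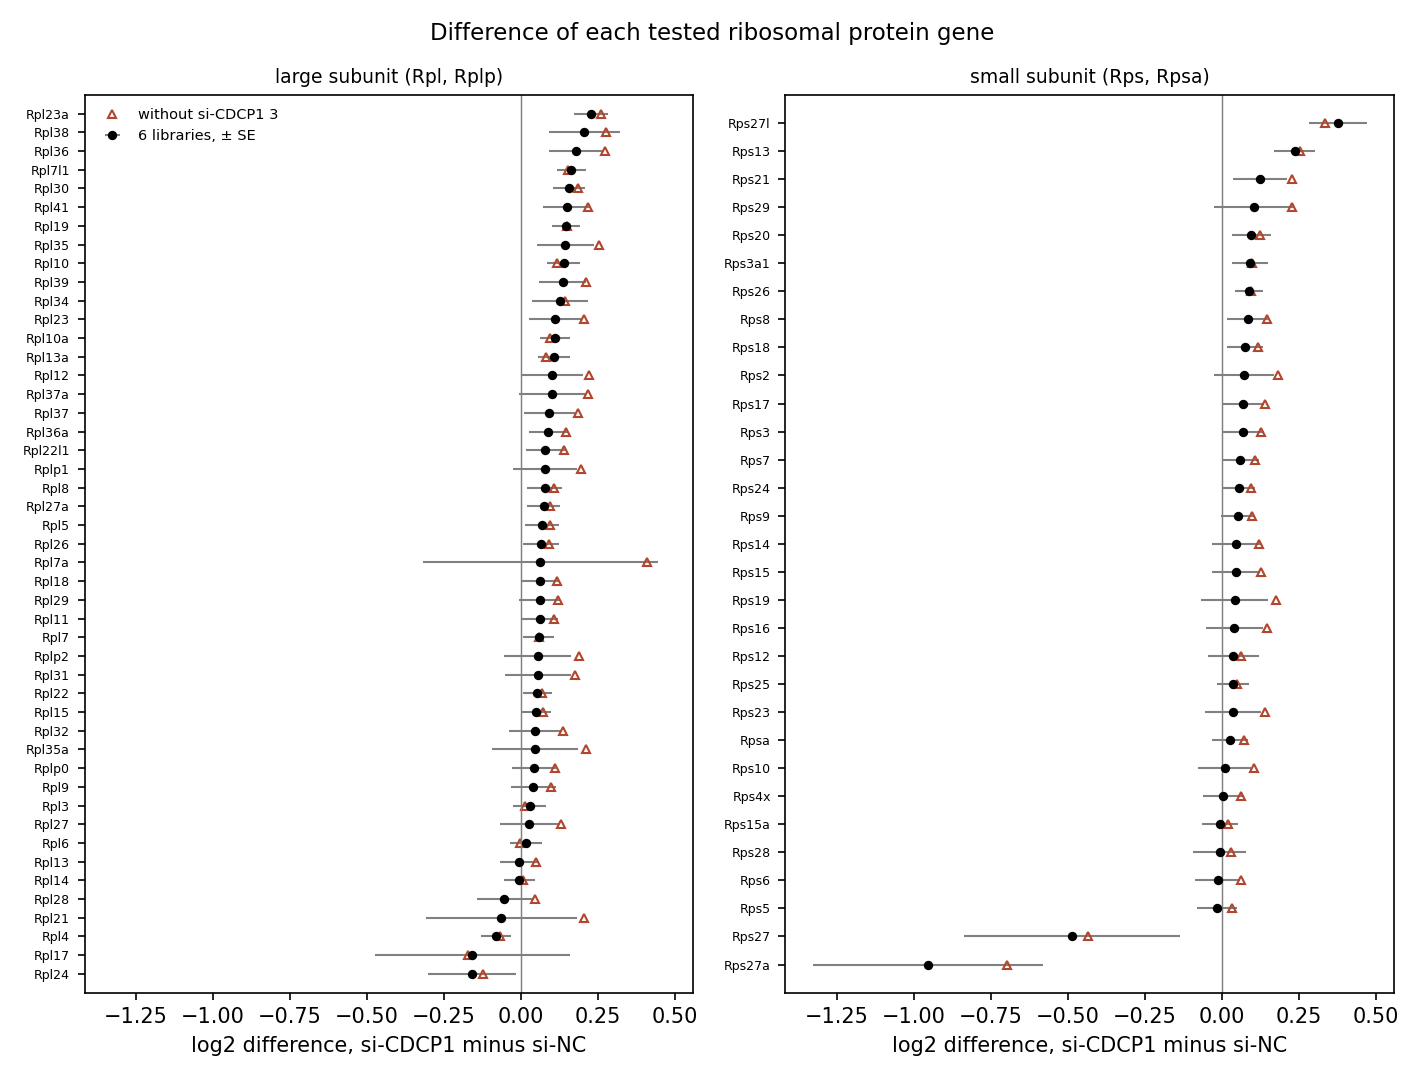
Log2 difference (si-CDCP1 minus si-NC, on log2(FPKM + 1)) of 47 tested large subunit and 31 tested small subunit genes. Filled circles with bars give the limma estimate ± SE over 6 libraries, and open triangles the estimate without si-CDCP1 replicate 3. Most circles lie between 0 and 0.2, with a median of 0.06 (-0.03 with quantile normalisation), and Rps27a, Rps27, Rpl7a, Rpl17 and Rpl21 have wide bars.

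The 3 si-CDCP1 libraries did not stand on the same side of the si-NC libraries. The summed FPKM of all members was 23906, 22860 and 20657 in si-CDCP1 replicates 1, 2 and 3, against 21755, 21076 and 21861 in si-NC replicates 1, 2 and 3. Replicates 1 and 2 of si-CDCP1 thus had the highest sums of the 6 libraries, and si-CDCP1 replicate 3 had the lowest. The means were 22474 ± 1658 FPKM in si-CDCP1 and 21564 ± 426 FPKM in si-NC (SD, n = 3 each), a difference within the spread of the si-CDCP1 libraries. As a share of the reads in listed genes, the members took 4.07%, 3.89% and 3.41% in si-CDCP1 replicates 1, 2 and 3, against 3.81%, 3.67% and 3.796% in the si-NC replicates. The reads in listed genes were 99.9%, 99.9% and 104% of the total that the deposited FPKM imply in the si-CDCP1 libraries, against 98.4% in each si-NC library. The deposited scaling thus did not follow the reads in listed genes alike in the 2 groups. Its part in the members' log2 differences was not tested.

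The same order of libraries recurred gene by gene. Of the 80 tested members, si-CDCP1 replicate 1 was the highest of the 6 libraries for 58 (72.5%, against 16.4% of all tested genes), and si-CDCP1 replicate 3 was the lowest for 37 (46.2%, against 30.0%). Both held at once for 34 members (42.5%, against 6.75%). Replicates 1 and 2 of si-CDCP1 lay above every si-NC library for 52 members (65.0%, against 19.9%). By contrast, 5 members, Rpl3, Rpl10, Rpl10a, Rpl13a and Rps27l, were highest in si-CDCP1 replicate 3 (6.25%, against 34.0% of all tested genes). Among the si-NC libraries, replicate 2 was the lowest of the 6 for 30 members (37.5%, against 18.5%). The members' median deviation from their own mean over the 6 libraries was 0.12, 0.05 and -0.08 on the log2 scale in si-CDCP1 replicates 1, 2 and 3, against -0.02, -0.07 and -0.01 in si-NC replicates 1, 2 and 3.

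**Figure D2:**
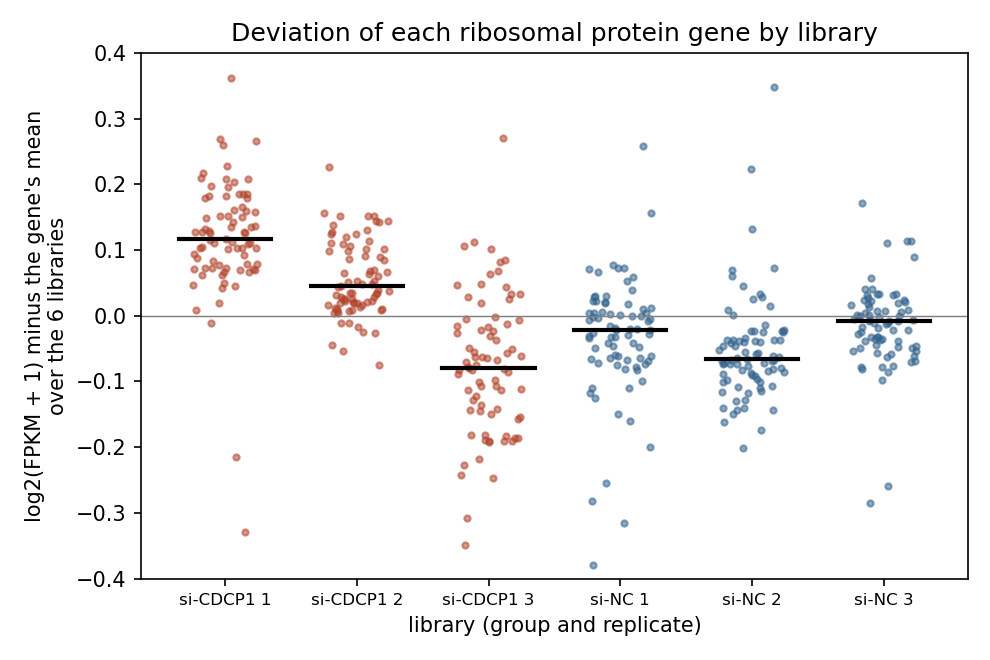
Deviation of each tested ribosomal protein gene (point) from its mean over the 6 libraries, on the log2(FPKM + 1) scale, by library, with the median as a bar. 15 points lie outside the axis limits of -0.4 and 0.4. The medians of si-CDCP1 replicates 1 and 2 are 0.12 and 0.05, above the si-NC medians, and that of si-CDCP1 replicate 3 is -0.08, below them.

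The count of members with a small p depended on single libraries. Without si-CDCP1 replicate 3, 40 members had an unadjusted p under 0.05, all of them higher in si-CDCP1 (against 10.8% of all tested genes higher and 5.81% lower). The median log2 difference of all 80 tested members was then 0.12, with 74 positive (against 52.2% of all tested genes). Of the members, 0 passed the adjusted threshold (against 0.0% of all tested genes). Without si-CDCP1 replicate 1 the count was 5 (6.25%, against 10.6%), and all tested members had a median of 0.02, with 49 positive (against 51.7% of all tested genes). Limma's library weights were 0.60, 5.11 and 0.16 for the si-CDCP1 libraries and 1.33, 1.08 and 1.37 for the si-NC libraries. The si-CDCP1 side of that fit thus rested mostly on replicate 2, and replicate 3 counted least. With these weights, 8 members passed the adjusted threshold (10.0%, against 7.16% of all tested genes). Those 8 were Rpl19, Rpl23a, Rpl30, Rpl35, Rpl36, Rpl37, Rps13 and Rps21, each higher in si-CDCP1. Voom with library quality weights, tried after seeing the data, called 14 members, among them these 8 (17.5%, against 5.84% of the genes it tested).

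Deviations also varied with gene length. The tested members were shorter than the tested genes as a whole, with a median length of 1775.5 bases against 3980.5 bases. Across all tested genes, the rank correlation of deviation with length was -0.31 in si-CDCP1 replicate 1 and between -0.04 and 0.09 in the other libraries, a description across genes, which are not independent. Within the 80 tested members it was -0.22, -0.30 and 0.16 in si-CDCP1 replicates 1, 2 and 3, and 0.33, -0.02 and -0.05 in si-NC replicates 1, 2 and 3. With each library's length trend removed, the members' median deviations were 0.08, 0.03 and -0.07 in the si-CDCP1 replicates, against -0.01, -0.04 and 0.0007 in the si-NC replicates. Their median log2 difference was then 0.03, with 60 positive (against 49.0% of all tested genes).

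Ribosomal protein mRNAs were among the most abundant in the cultures. The median of the members' mean FPKM was 203, against 8.99 over all tested genes, and 60 members averaged at least 100 FPKM, 18 between 10 and 100 and 2 less than 10. Of the 50 genes with the highest mean FPKM, 15 were members, and of the 500 highest, 65 were. Levels per length ran from above 1000 FPKM for Rplp1, Rplp0 and Rpl8 down to about 1 FPKM for Rpl24. Spread between replicates was wider in si-CDCP1: the median coefficient of variation of a tested member was 7.40% in si-CDCP1 and 3.44% in si-NC, and over the 385 genes of at least 100 FPKM it was 6.94% in si-CDCP1 and 2.86% in si-NC.

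**Figure D3:**
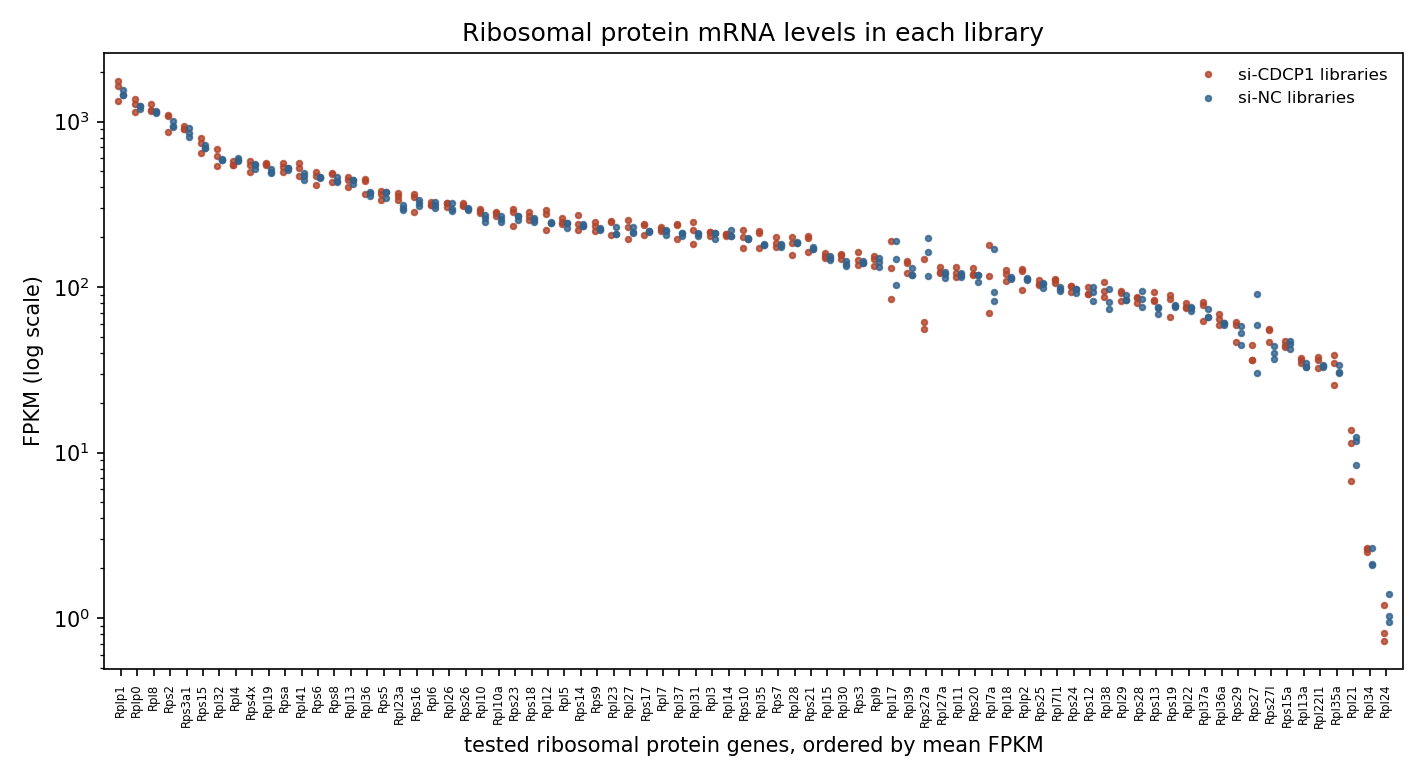
FPKM (log scale) of 78 tested ribosomal protein genes in each si-CDCP1 and si-NC library (points), ordered by mean. Points of a gene mostly lie close together, from Rplp1 at 1574 FPKM in si-CDCP1 and 1482 FPKM in si-NC down to Rpl24 at 0.910 FPKM and 1.13 FPKM, while Rpl17, Rps27a, Rpl7a and Rps27 are spread out.

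The stalk genes encode the flexible arm of the large subunit that recruits elongation factors. Rplp1 (mm10 chromosome 9, 61913284 to 61914542, minus strand) was at 1758, 1632 and 1333 FPKM in si-CDCP1 libraries and at 1444, 1446 and 1555 FPKM in si-NC libraries. Rplp0, the base of the stalk, was at 1366, 1278 and 1149 FPKM in si-CDCP1 libraries and at 1239, 1196 and 1240.5 FPKM in si-NC libraries. Their partner Rplp2 was listed lower, at 129, 126 and 95.9 FPKM in si-CDCP1 libraries and 113, 112 and 109.8 FPKM in si-NC libraries. In each of the 3 genes si-CDCP1 replicates 1 and 2 lay above and replicate 3 below every si-NC library, and the groups overlapped. The log2 differences were 0.08 (SE 0.10) for Rplp1, 0.04 (SE 0.072) for Rplp0 and 0.05 (SE 0.11) for Rplp2, with signs that depended on the libraries kept and, for Rplp0 and Rplp2, on the scaling.

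Around the exit tunnel and the catalytic centre, Rpl23a had the smallest p of all members. Rpl23a (ENSMUSG00000058546, mm10 chromosome 11, 78180932 to 78183584, minus strand) sits at the tunnel exit, where the signal recognition particle docks. It was at 371, 353 and 338 FPKM in si-CDCP1 libraries and at 301, 292 and 313 FPKM in si-NC libraries, with no overlap. The log2 difference was 0.23 (SE 0.055), with a limma adjusted p of 0.267. That adjusted p ranged from 0.00580 to 0.645 over the alternatives and was under 0.05 only in fits that weight the libraries. With the reads of its pseudogene copies added, the log2 difference was smaller, at 0.10 (SE 0.046, limma adjusted p = 0.366), and the groups still did not overlap. Rpl4, which lines the tunnel, was the only member lower in every si-CDCP1 library (1.25%, against 10.6% of all tested genes), at 580, 544 and 546 FPKM in si-CDCP1 libraries and 602, 584 and 581 FPKM in si-NC libraries. Its log2 difference was -0.08 (SE 0.049). Rpl39, a small tunnel protein, averaged 135 ± 11.9 FPKM in si-CDCP1 and 123 ± 6.86 FPKM in si-NC (SD, n = 3 each).

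Next to the catalytic centre, Rpl8 and Rpl10 had higher values in every si-CDCP1 library. Rpl8 was at 1277, 1177 and 1151.3 FPKM in si-CDCP1 libraries and 1151.2, 1123 and 1141 FPKM in si-NC libraries, and its lowest si-CDCP1 library thus lay only just above its highest si-NC library. Rpl10, which joins the large subunit late in assembly, was at 287, 279 and 296 FPKM in si-CDCP1 libraries and 273, 248 and 263 FPKM in si-NC libraries, without overlap, a log2 difference of 0.14 (SE 0.054, limma adjusted p = 0.330). Rpl3 averaged 211 ± 7.28 FPKM in si-CDCP1 and 207 ± 9.56 FPKM in si-NC (SD, n = 3 each).

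Rpl19, which forms a bridge to the small subunit, had closely spaced replicates. It was at 562, 549 and 550.1 FPKM in si-CDCP1 libraries and 515, 495 and 492 FPKM in si-NC libraries, a log2 difference of 0.15 (SE 0.045, limma adjusted p = 0.296, from 0.0271 to 0.645 over the alternatives). The adjusted p of Rpl19 was under 0.05 only in fits that weight the libraries. Rpl30, which in yeast binds its own transcript, was at 159, 156 and 148 FPKM in si-CDCP1 libraries and 134, 138 and 144 FPKM in si-NC libraries, a log2 difference of 0.16 (SE 0.051). In both genes the groups did not overlap. Every si-CDCP1 library lay above every si-NC library for 12 members, among them Rpl7l1, Rpl8, Rpl10, Rpl10a, Rpl13a, Rpl19, Rpl23a, Rpl30, Rps13, Rps26 and Rps27l. That is 12 of 80 members, against 14.4% of all tested genes.

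**Figure D4:**
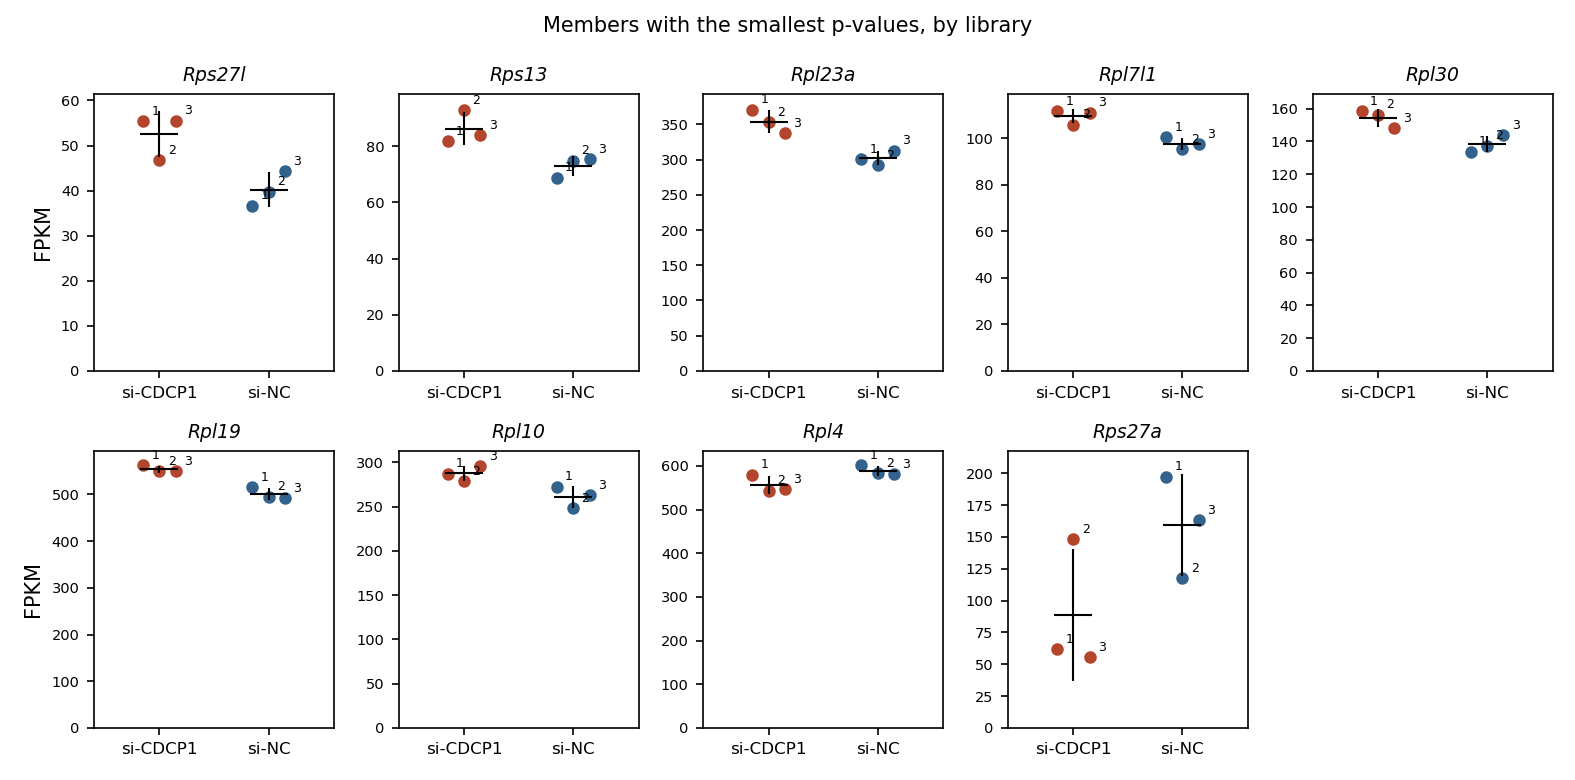
FPKM by library (points with replicate numbers) of 7 members with the smallest p-values among those higher in si-CDCP1, and of Rpl4 and Rps27a, lower in si-CDCP1. Bars give the mean and SD of 3 libraries. The groups do not overlap in the first 8 panels and overlap for Rps27a, and the axes start at 0.

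Rpl5 and Rpl11 form the 5S RNP with 5S rRNA, which binds Mdm2 when ribosome assembly is disturbed. Rpl5 averaged 250.2 ± 10.9 FPKM in si-CDCP1 and 239 ± 10.3 FPKM in si-NC, and Rpl11 averaged 123 ± 8.23 FPKM in si-CDCP1 and 118 ± 3.06 FPKM in si-NC (SD, n = 3 each). The log2 differences were 0.07 (SE 0.056) for Rpl5 and 0.06 (SE 0.060) for Rpl11, and both genes had negative values with quantile normalisation. Rpl38, which in mouse embryos affects translation of Hox mRNAs, was at 108, 95.3 and 87.5 FPKM in si-CDCP1 libraries and 73.7, 81.4 and 97.2 FPKM in si-NC libraries. Its log2 difference of 0.21 (SE 0.12) was among the largest, but the groups overlapped. Rpl41, the shortest ribosomal protein, averaged 519 ± 46.4 FPKM in si-CDCP1 and 467 ± 23.6 FPKM in si-NC. Rpl13a, part of a translation-silencing complex in human monocytes, averaged 36.1 ± 1.31 FPKM in si-CDCP1 and 33.5 ± 1.15 FPKM in si-NC.

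Rpl28, also of the large subunit, had a negative difference with a p-value far from the threshold. It averaged 179.7 ± 22.3 FPKM in si-CDCP1 and 186 ± 0.662 FPKM in si-NC (SD, n = 3 each). Its lowest library was si-CDCP1 replicate 3, at 156 FPKM, and without it the log2 difference was 0.05. Among the lowest members, Rpl35a averaged 33.0 ± 6.68 FPKM in si-CDCP1 and 31.5 ± 1.84 FPKM in si-NC, and Rpl21 averaged 10.6 ± 3.56 FPKM in si-CDCP1 and 10.8 ± 2.14 FPKM in si-NC.

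In the small subunit, Rps13 had the smallest p after the paralog Rps27l. Rps13 (ENSMUSG00000090862, mm10 chromosome 7, 116331505 to 116334195, minus strand) was at 81.8, 92.9 and 83.9 FPKM in si-CDCP1 libraries and 68.8, 74.8 and 75.4 FPKM in si-NC libraries, without overlap. The log2 difference was 0.24 (SE 0.065), with a limma adjusted p of 0.275. That adjusted p ranged from 0.00506 to 0.645 over the alternatives and was under 0.05 only in fits that weight the libraries.

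Other small subunit members named for their level or known roles had unadjusted p-values over 0.05. Rps6, the substrate of the S6 kinases, was at 496, 467 and 412 FPKM in si-CDCP1 libraries and 465, 462 and 457 FPKM in si-NC libraries, so that 2 si-CDCP1 libraries lay above and 1 below every si-NC library. Rpsa, also known as the laminin receptor precursor, averaged 531 ± 33.0 FPKM in si-CDCP1 and 520.2 ± 10.2 FPKM in si-NC (SD, n = 3 each). The X-linked Rps4x averaged 541 ± 40.4 FPKM in si-CDCP1 and 539 ± 17.7 FPKM in si-NC. The abundant Rps2, which lies at the mRNA entry channel, averaged 1011 ± 127 FPKM in si-CDCP1 and 957 ± 40.5 FPKM in si-NC, and Rps15 averaged 726 ± 72.4 FPKM in si-CDCP1 and 701 ± 14.4 FPKM in si-NC. Rps3a1, the mouse counterpart of human RPS3A, averaged 914 ± 21.4 FPKM in si-CDCP1 and 859 ± 50.7 FPKM in si-NC.

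Rps27a was the only member lower in si-CDCP1 at an unadjusted p under 0.05, and it was also the member with the largest difference. It encodes ubiquitin fused to a small subunit protein. Rps27a (ENSMUSG00000020460, mm10 chromosome 11, 29545846 to 29548109, minus strand) was at 61.8, 148 and 55.6 FPKM in si-CDCP1 libraries and at 197, 117 and 163 FPKM in si-NC libraries. The groups overlapped, since si-CDCP1 replicate 2 lay above si-NC replicate 2. Counting error was small beside this, with exact Poisson 95% intervals from 59.2 to 64.5 FPKM in si-CDCP1 replicate 1 and from 193 to 202 FPKM in si-NC replicate 1. The log2 difference was -0.95 (SE 0.37), with an unadjusted p of 0.0377 and an adjusted p of 0.334 in limma's test. Its size depended on the libraries: it was -0.70 without si-CDCP1 replicate 3 and -0.77 without si-CDCP1 replicate 1. With limma's library weights it was -0.27 (SE 0.29, limma adjusted p = 0.581). Its coefficient of variation, 58.4% in si-CDCP1 and 25.2% in si-NC, was far above the median of the members.

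Paralogs of ribosomal proteins differed from each other in level. Rps27l, a paralog of Rps27 that is a p53 target in human cells, was at 55.4, 46.8 and 55.5 FPKM in si-CDCP1 libraries and 36.7, 39.8 and 44.3 FPKM in si-NC libraries. The groups did not overlap, and the log2 difference was 0.38 (SE 0.093), the largest positive one of the members, with a limma adjusted p of 0.267 (from 0.0552 to 0.645 over the alternatives). Rpl7l1, the paralog of Rpl7, was at 112, 106 and 111 FPKM in si-CDCP1 libraries and 100.5, 95.3 and 97.4 FPKM in si-NC libraries, again without overlap, a log2 difference of 0.16 (SE 0.046). Practically all reads of Rps27l and Rpl7l1 and their copies lay on their own rows (99.9% and 99.8%). Rpl22 averaged 76.7 ± 2.47 FPKM in si-CDCP1 and 73.9 ± 1.87 FPKM in si-NC, and its paralog Rpl22l1 averaged 35.5 ± 2.76 FPKM in si-CDCP1 and 33.4 ± 0.465 FPKM in si-NC (SD, n = 3 each).

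Tissue-restricted paralogs were at or near 0. Rpl3l, found in skeletal muscle and heart in mouse, had 1, 2 and 3 reads in si-CDCP1 libraries and 1, 0 and 0 reads in si-NC libraries. Rpl10l and Rpl39l, expressed in mouse testis, had 0 reads in all 6 libraries, which with a floor of 3 reads allows up to 0.188 and 0.231 FPKM in the shallowest library, counting error only. These 3 genes are the members below the filter of 1 FPKM. Rps4l is a transcribed processed pseudogene in the table, hence no member, and was listed at 0.

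Reads of pseudogene copies bear on these values. Copies were taken as rows of the table annotated as pseudogenes that name the same protein entry as a member, or rows named after it (Rpl17-ps10, Rps27rt). There were 2170 such rows for 79 of the 83 members, and 760 of them, for 77 members, held at least 1 read. Copies took 0.625%, 0.552% and 0.494% of the reads in listed genes in si-CDCP1 replicates 1, 2 and 3, against 0.589%, 0.565% and 0.558% in the si-NC replicates, the same order of libraries as for the members in the si-CDCP1 group. A member's own row held a median of 91.8% of the reads of the member and its copies together. It held at least 90% for 43 tested members and less than 50% for 6, namely Rpl34, Rpl24, Rpl21, Rpl17, Rps27 and Rpl3.

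The 2 lowest tested members had most of their reads on copy rows. Rpl34 averaged 2.58 ± 0.0763 FPKM in si-CDCP1 and 2.29 ± 0.308 FPKM in si-NC (SD, n = 3 each), while its processed pseudogene Rpl34-ps1 was at 872, 837 and 696 FPKM in si-CDCP1 libraries and 734, 727 and 773 FPKM in si-NC libraries. The Rpl34 row thus held 2.23% of the reads of Rpl34 and its copies. For Rpl24 the share was 5.85%, but Rpl24 and its copies together came to 19.3, 16.1 and 14.0 scaled fragments (FPKM times length in kilobases) in si-CDCP1 libraries and 19.9, 18.6 and 20.2 in si-NC libraries, which is low beside other members. Rpl3 shared its reads with Rpl3-ps1, at 47.8% on its own row.

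Among the members that varied most between replicates, Rpl17 mirrored a copy. The Rpl17 row held 65.2, 147 and 101 scaled fragments in si-CDCP1 libraries and 80.1, 115 and 146 in si-NC libraries, while Rpl17-ps10 held 202, 109 and 142 in si-CDCP1 libraries and 188, 127 and 106 in si-NC libraries. Libraries low in one row were high in the other, in both groups. With all copies added, the sum was 421 ± 18.7 scaled fragments in si-CDCP1 and 403 ± 21.8 in si-NC (SD, n = 3 each). The coefficient of variation over the 6 libraries was 30.9% for Rpl17 alone and 4.99% for the sum.

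Rps27 mirrored Rps27rt, a copy listed as protein coding, in the si-NC libraries. Rps27 was at 38.1, 46.3 and 37.6 scaled fragments in si-CDCP1 libraries and 31.7, 61.5 and 95.1 in si-NC libraries, against 119, 102 and 98.9 for Rps27rt in si-CDCP1 libraries and 96.9, 65.8 and 37.1 in si-NC libraries. In si-CDCP1 there was no such mirroring, since replicate 3 was the lowest for both rows. The sum was 157, 148 and 136 in si-CDCP1 libraries and 129, 127 and 133 in si-NC libraries, with every si-CDCP1 library above every si-NC library. The log2 difference was -0.49 (SE 0.35) for Rps27 alone, 0.18 for the sum (limma adjusted p = 0.296) and 0.78 for the Rps27rt row (limma adjusted p = 0.340). Whether reads moved between the 2 rows or the rows differ in expression was not tested. For Rpl23a, the pseudogene Rpl23a-ps3 was lower in every si-CDCP1 library, at 47.9, 51.5 and 60.7 scaled fragments against 74.1, 71.0 and 64.4 in si-NC libraries, opposite to Rpl23a itself.

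Adding the copies did not level out Rps27a and Rpl7a. Rps27a with its copies held 179, 330.2 and 151 scaled fragments in si-CDCP1 libraries and 427, 270.5 and 364 in si-NC libraries, a log2 difference of -0.74, and its coefficient of variation over the 6 libraries was 45.8% alone and 37.5% with the copies. Rpl7a was at 180.4, 116 and 69.9 FPKM in si-CDCP1 libraries and 169, 82.1 and 92.9 FPKM in si-NC libraries, with a coefficient of variation of 39.1% alone and 28.0% with the copies. Replicate 1 was the highest library in each group for Rpl7a. Reads of these genes on rows that name another protein, or on none, were not tested.

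**Figure D5:**
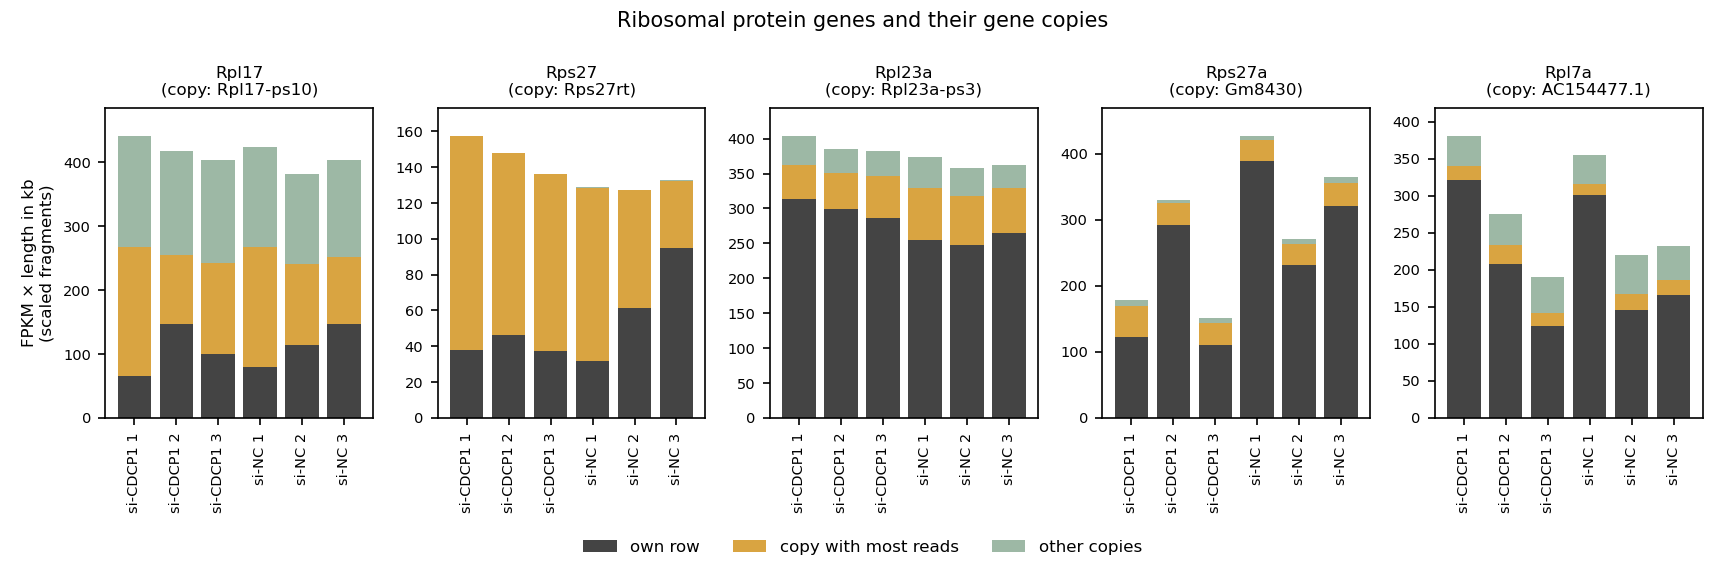
Scaled fragments (FPKM times gene length in kilobases) on the own row of 5 ribosomal protein genes, on the copy with the most reads and on all other copies, stacked by library. The stacks of Rpl17, Rps27 and Rpl23a vary little, with a coefficient of variation of 4.99%, 8.56% and 4.43% over the 6 libraries. Those of Rps27 and Rpl23a are nonetheless higher in every si-CDCP1 library than in every si-NC library. The stacks of Rps27a and Rpl7a vary by 37.5% and 28.0%.

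Over all members, adding the copies changed little. The median log2 difference was 0.06 with 67 positive (against 52.4% of all tested genes), and 0 members passed the adjusted threshold (0.00842% of the 11880 genes tested). Members with at least 90% of reads on their own row had a median of 0.06 (39 of 43 positive), and the 37 tested members with less had a median of 0.06 (27 positive). The copies' own rows did not share the sign: of 200 tested copy rows, 85 had a positive log2 difference (42.5%, against 52.3% of all tested genes), with a median of -0.03, 5 higher and 9 lower at an unadjusted p under 0.05 (against 8.94% and 5.31% of all tested genes).

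Genes around the ribosome, in 5 lists, had 0 genes past the adjusted threshold in each list; the median log2 difference over all tested genes was 0.01. At an unadjusted p under 0.05, 8.94% of all tested genes were higher and 5.31% lower. Of 3 tested genes for fused or associated ribosomal proteins, 0 had an unadjusted p under 0.05 (median log2 difference 0.00). Fau, a ubiquitin-like protein fused to a small subunit protein, averaged 453 ± 53.5 FPKM in si-CDCP1 and 453 ± 9.85 FPKM in si-NC, and Rack1, a scaffold on the small subunit, averaged 286 ± 16.9 FPKM in si-CDCP1 and 285 ± 12.3 FPKM in si-NC (SD, n = 3 each). Of 8 genes in a list of elongation factors and genes with like names, 2 were higher and 0 lower at that p (median -0.01). The 2 were Eif5a and Eef1e1. Eif5a, which helps the ribosome through proline stretches, was at 302, 302 and 337 FPKM in si-CDCP1 libraries and 259, 251 and 259.7 FPKM in si-NC libraries. Eef1e1, a component of the multi-tRNA synthetase complex, averaged 13.7 ± 1.16 FPKM in si-CDCP1 and 10.6 ± 0.441 FPKM in si-NC, whereas Eef2, the translocation factor, averaged 1264 ± 139 FPKM in si-CDCP1 and 1406 ± 50.8 FPKM in si-NC.

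Other genes with TOP mRNAs had a median log2 difference of 0.10, with 12 of 16 positive (against 52.3% of all tested genes). At an unadjusted p under 0.05, 3 were higher and 0 lower (against 8.94% and 5.31% of all tested genes). Npm1, a nucleolar chaperone, averaged 314 ± 20.2 FPKM in si-CDCP1 and 266 ± 10.6 FPKM in si-NC (SD, n = 3 each). Tpt1 averaged 642 ± 28.7 FPKM in si-CDCP1 and 580.1 ± 33.4 FPKM in si-NC, and Snhg1, a host gene of small nucleolar RNAs, averaged 66.3 ± 4.10 FPKM in si-CDCP1 and 54.7 ± 6.03 FPKM in si-NC. Npm1 and Snhg1 were highest in si-CDCP1 replicate 3, at 338 and 70.7 FPKM, the library in which most ribosomal protein genes were low. That library was the highest for 34.0% of all tested genes. Tpt1 went the other way within the si-CDCP1 group, at 667, 650 and 611 FPKM in replicates 1, 2 and 3.

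Of 14 tested genes for mTORC1 and TOP mRNA control, 2 were higher and 1 lower at an unadjusted p under 0.05 (against 8.94% and 5.31% of all tested genes, median log2 difference 0.08). Eif4ebp1, a repressor of cap-dependent translation that mTORC1 inactivates, was at 175, 173 and 179 FPKM in si-CDCP1 libraries and 153, 153 and 153 FPKM in si-NC libraries, with no overlap. Akt1s1, an inhibitory subunit of mTORC1, averaged 37.4 ± 0.883 FPKM in si-CDCP1 and 30.3 ± 2.63 FPKM in si-NC, and Eif4ebp2 averaged 35.1 ± 3.45 FPKM in si-CDCP1 and 40.2 ± 1.26 FPKM in si-NC (SD, n = 3 each). Of 8 genes of the 5S RNP and p53 link, 3 were higher and 0 lower at that p (against the same 8.94% and 5.31%, median 0.06). Rrs1, an assembly factor that recruits the 5S RNP, was at 50.2, 50.3 and 50.3 FPKM in si-CDCP1 libraries and 41.4, 42.6 and 42.5 FPKM in si-NC libraries, a log2 difference of 0.25 (SE 0.041, limma adjusted p = 0.238). Heatr3 averaged 26.9 ± 2.36 FPKM in si-CDCP1 and 22.6 ± 0.6998 FPKM in si-NC, and Bccip averaged 25.2 ± 2.29 FPKM in si-CDCP1 and 21.4 ± 0.489 FPKM in si-NC. The rest of this list had an unadjusted limma p over 0.05. Log2 differences were 0.001 for Trp53, 0.03 for Mdm2, 0.08 for Zfp622, -0.04 for Cdkn1a and -0.13 for Mdm4.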

How the data were processed

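The authors deposited 1 table of FPKM for the 6 libraries with gene length, type and mm10 position, per the file headers. The build mm10 comes from the submitters' processing notes. Not given in the sources used here were the aligner, the counting tool, its strand setting and its treatment of reads matching several places. Per the labels' protocols, libraries were made from total RNA with an mRNA kit. FPKM times gene length gave whole reads (100% of values within 0.01 of a whole number).

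The test was limma 3.58.1 (R 4.3.3), moderated with an intensity trend, two-sided, on log2(FPKM + 1), which understates the change of low genes, with BH adjustment over the 12080 genes averaging 1 FPKM or more. It was also run on simulated reads, with equal spread in all libraries and larger changes than most members had. That run cannot show whether differences of the members' size would be found here. The p-values rest on the spread among these libraries alone, which may be technical. Voom used genes with at least 10 reads in 3 libraries. Alternatives were other pseudocounts, filters and scalings, library weights, removal of the length trend (lowess, span 0.3), the replicate number as a block, each library left out, and, added after the data had been seen, copies summed and voom with quality weights.

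Members and lists were chosen with earlier results of these data known. Named genes are the 8 members with the smallest p in each direction, the 6 highest and 6 lowest, those below the filter, set paralogs, stalk and signalling members, and up to 3 of each list; some of these are not reported here. Rpl3, Rpl7a, Rpl35, Rpl36, Rpl37, Rps21, Rps26, Rpl10a and Eef2 were named after their values were seen. Sequences are not used here.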

Additional observations from a re-analysis of the deposited data

How the results depend on the processing

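Members past the adjusted threshold were 0 in every alternative but library weights (8) and voom with library quality weights (14). The count at an unadjusted p under 0.05, 9 members with all libraries (11.2%, against 14.3% of all tested genes), was 32 (40.0%, against 29.1%) and 37 (46.2%, against 23.2%) in those fits. It was 5 with quantile normalisation (6.25%, against 13.1%) and 4 with the length trend removed and the replicate block together (5.0%, against 12.7%). With 1 library left out it ran from 5 (against 17.7% of all tested genes without si-CDCP1 replicate 1, and 7.57% without si-NC replicate 2) to 40 members (against 16.6%, without si-CDCP1 replicate 3). Same-numbered libraries had correlations of deviations near 0 (-0.02, 0.03 and 0.02), which with 3 libraries per group cannot decide whether the numbers pair them. With the replicate block the count at an unadjusted p under 0.05 was 5 (6.25%, against 12.9%), and 0 members passed the adjusted threshold. The members' median log2 difference was -0.031 with quantile normalisation. Of 36 named members under up to 21 alternatives each, 689 values kept their sign and side of the threshold, 11 passed the threshold and 54 changed sign. Rpl35, Rpl36, Rpl37 and Rps21, which passed in both weighted fits, are not counted among these 36. Sign changes with quantile normalisation were Rpl11 -0.027, Rpl22 -0.025, Rpl3 -0.034, Rpl35a -0.0090, Rpl5 -0.049, Rpl7a -0.046, Rplp0 -0.026, Rplp2 -0.031, Rps15 -0.0074, Rps4x -0.067 and Rpsa -0.051, and with equal FPKM sums Rpl22 -0.0010, Rpl3 -0.026, Rpl35a -0.0076, Rplp0 -0.013, Rps15 -0.0083, Rps4x -0.051 and Rpsa -0.027. With copies summed they were Rpl17 0.062, Rpl3 -0.037, Rps27 0.18 and Rps4x -0.0011, with library weights Rpl17 0.27, Rpl21 0.10, Rpl3 -0.024 and Rps6 0.022, and with voom quality weights Rpl17 0.11, Rpl21 0.15, Rpl28 0.0010, Rpl3 -0.015 and Rps6 0.028. Rps4x was -0.033 with the length trend removed, with and without the replicate block, and -0.0062 with the median log ratio set to 0. With 1 library left out, values ranged from -0.44 to 0.14 for Rpl17, -0.26 to 0.20 for Rpl21, -0.13 to 0.046 for Rpl28, -0.011 to 0.057 for Rpl3, -0.078 to 0.21 for Rpl35a, -0.27 to 0.41 for Rpl7a, -0.016 to 0.11 for Rplp0, -0.0058 to 0.19 for Rplp1, -0.022 to 0.19 for Rplp2, -0.018 to 0.13 for Rps15, -0.047 to 0.061 for Rps4x, -0.073 to 0.061 for Rps6 and -0.018 to 0.071 for Rpsa. The causes were not tested. Depth limits the members near 0 reads, and reads shared with copies limit the values of single rows.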
